A study of Homo sapiens with 11 samples.

Results

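LX-2 is a human hepatic stellate cell line that grows without limit in culture, and its transcriptome without virus or bacterial ligand was described from the 3 RNA-seq libraries given PBS. These are the PBS libraries of replicates 1, 2 and 3, which make up 3 of the 9 RNA-seq libraries and 3 of the 11 samples of the study. The cells are labelled wild type. They were grown in DMEM with 10% fetal bovine serum and harvested 24 h after PBS was added, although the design text speaks of medium for the same group. Each library belongs to a batch of its own, numbered like the replicate. The other libraries, given HIV-1 alone or with lipoteichoic acid, and the ChIP-seq samples were not used here. All 3 libraries come from 1 line, and nothing states that they are separate cultures, so their spread may be technical and says nothing about differences between people.

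In the healthy liver, stellate cells lie between hepatocytes and the sinusoidal endothelium and store vitamin A as retinyl esters, which the enzyme LRAT makes. After injury they lose these stores, divide, acquire contractile fibres with smooth muscle actin (ACTA2) and become the main producers of fibrillar collagen, a state called activation. PDGF drives their division, TGF-beta their matrix production, and integrins tie them to the matrix they lay down. Culture on plastic in serum by itself activates stellate cells, and lines derived from them are used as models of the activated state.

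Levels are raw counts divided by the library total and given as counts per 1000000 (CPM), always in the order of libraries 1, 2 and 3. The totals were 90.6, 80.0 and 55.6 M (M, counts in units of 1000000), so 1 CPM rested on 90.6, 80.0 and 55.6 counts. A count of 0 allows a level of up to 0.0331, 0.0375 or 0.0540 CPM (3 counts of the total, for counting error only). A gene was taken as expressed at 1 CPM or more. Because long transcripts collect more reads, an order of genes by CPM is an order by counts, and ratios between genes are given only as CPM per kb of the exons of 1 reference transcript. Which transcripts of a gene the cells made was not measured, so a second length, the merged exons of all annotated transcripts, was added after the data were seen. Values with it are given where they differ by over 1.5 times or change an order. These are bulk values: fewer cells expressing a gene and less RNA per cell cannot be told apart. Strand and multi-mapping settings of the counting are not given, so levels of overlapping or antisense genes (FGF2, BDNF, WT1, MIF and the HOX clusters) and of genes with near-identical copies (EEF1A1, ACTB, ACTG1, C4A, C4B and ribosomal protein genes) are uncertain.

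Library 3 stood apart from the other libraries. Over the 9253 genes averaging 10 CPM or more, the correlation of log2 CPM across genes was 0.995 between libraries 1 and 2, but 0.910 and 0.912 between library 3 and each of them. Genes share the libraries and are not independent, so these values only describe. Only 6 genes (0.0648%) differed at least 2-fold between libraries 1 and 2, against 975 (10.5%) between 1 and 3 and 936 (10.1%) between 2 and 3. In all, the highest library was at least 2-fold the lowest for 1118 genes (12.1%). Library 3 lay at least 2-fold above both others for 239 genes (2.58%) and below both for 555 (6.0%). The split depended on the scaling, since library 3 had a median log2 difference of -0.13 from the mean of the others: with TMM scaling the counts were 335 and 359 and the median was 0.02. Mitochondrially encoded genes took 1.31, 1.47 and 1.22% of counts and 88 ribosomal protein genes 4.26, 4.05 and 4.5%. Library 3 was the only PBS library of batch 3 and the shallowest, and batch, depth and culture cannot be told apart.

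**Figure D1:**
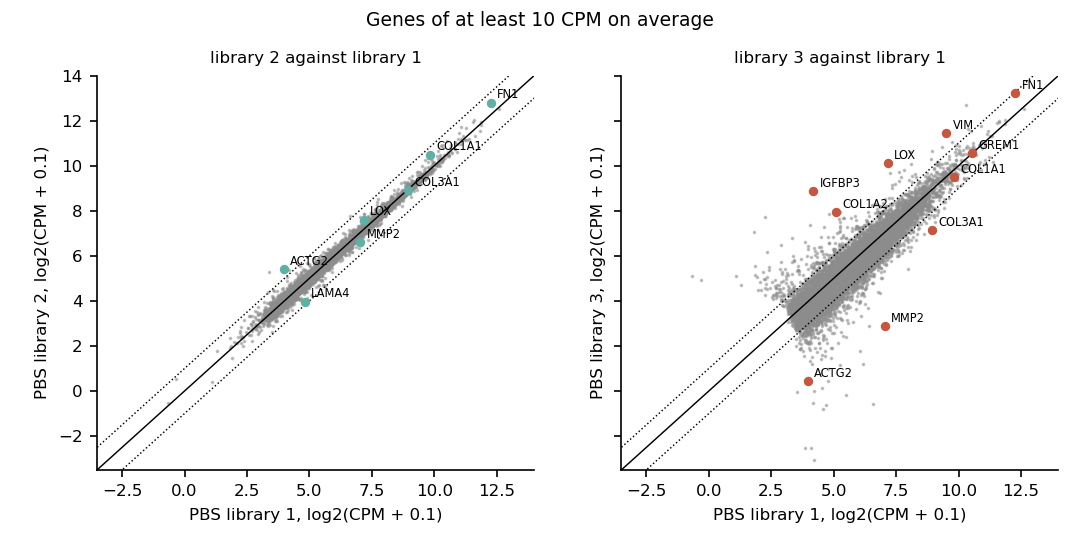
Levels of the 9253 genes averaging 10 CPM or more, as log2(CPM + 0.1), in library 2 (left) and library 3 (right) against library 1. Each point is a gene, the solid line marks equal levels, dotted lines mark 2-fold differences, and selected genes are coloured and named; the cloud is narrow for library 2 and wide for library 3.

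Of the 15 genes with the highest ratio between libraries, 11 were lowest in library 3 and 4 were highest there. Between libraries 1 and 2, 14 of the 15 differed by under 2-fold; the other was the smooth muscle actin gene ACTG2, described below. KCNN4, a calcium-activated potassium channel, had 1662 and 2162 counts in libraries 1 and 2 and 1 count in library 3. DIO2, which activates thyroid hormone, measured 94.5, 106 and 0.575 CPM. CD24, a surface glycoprotein, measured 72.4, 79.2 and 2.21 CPM. Nestin (NES), an intermediate filament of the stellate list, measured 14.2, 16.9 and 0.0719 CPM. The 4 highest in library 3 were PLCB1, CYP24A1, GRIN2A and SEMA3A. CYP24A1, the vitamin D-degrading hydroxylase, measured 4.59, 6.20 and 212 CPM. SEMA3A, an axon guidance factor, measured 3.40, 3.65 and 134 CPM. In all, 27 genes were at 10 CPM or more in libraries 1 and 2 and under 1 CPM in library 3, and 7 were at 10 CPM or more only in library 3 with under 1 CPM in both others. A mean over the libraries therefore describes none of them for such genes.

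Of 35303 genes in the count file, 22811 had a count in some PBS library and 12089 reached 1 CPM in all 3, or 12742 when only libraries 1 and 2 were asked. Of 19218 protein-coding genes, 59.2% reached 1 CPM in all libraries, 36.0% were below it in all and 13.5% had no count; their median level was 7.44 CPM. These shares are the background for each group below. Counts were spread widely: 86 genes of at least 1000 CPM took 15% of counts, and 2374 genes of 100 to 1000 CPM took 56.1%. The 22427 genes under 1 CPM together took 0.149%. The 100 genes with the most counts took 15.3, 16.4 and 17.5% of counts.

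Fibronectin (FN1) had the highest mean CPM of all genes, that is the most counts, and measured 4946, 7141 and 9606 CPM (7231 ± 2331, SD, n = 3). It had the most counts only in libraries 2 and 3; in library 1 the elongation factor gene EEF1A1 measured 6239 CPM. Other genes among the 10 with the most counts encoded annexin A2 (ANXA2), cytoplasmic actins (ACTG1, ACTB), GAPDH and the chaperone HSPA8. The follistatin-like protein FSTL1 held rank 10 by mean CPM with 2452, 3275 and 2527 CPM. Per kb short transcripts came first. The actin-binding thymosin TMSB10, at 1927, 1545 and 3447 CPM, led the protein-coding genes with either length, with a mean of 5003 CPM per kb. For others the length mattered: the thymosin TMSB4X and the myosin light chain MYL6 averaged 3948 and 3532 CPM per kb of 1 transcript, but 1442 and 565 CPM with merged exons, under the 1530 CPM of GAPDH. FN1, with a transcript of 8390 bases, held rank 54 among protein-coding genes per kb, or 35 with merged exons.

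The share of CpG-rich promoters differed between classes of level. RefSeq sequences (build GRCh38.p14, from 250 bases before to 50 after the start) were matched by symbol for 616 of the 885 list members and for 15195 protein-coding genes. A promoter was counted as CpG-rich when its CpG dinucleotides reached at least 0.6 of the number its base content predicts. CpG-rich promoters made up 83.3% of those of genes of at least 1000 CPM, 87.3% at 100 to 1000 CPM, 85.1% at 10 to 100 CPM, 71.0% at 1 to 10 CPM and 33.4% under 1 CPM, against 65.1% of all. The letters TATAAA stood on either strand in 10.6%, 5.57%, 4.95%, 7.36% and 17.5% of the same classes and in 9.83% of all. The letters GGGCGG stood in 58.1%, CCAAT in 36.3% and the CArG box of muscle genes in 1.26% of all promoters. The lists differed too. Of matched genes, 20 of 21 proliferation genes and 21 of 23 positional genes had a CpG-rich promoter. Among macrophage genes 0 of 14 did, and among hepatocyte genes 1 of 14. Some other lists did not follow level. In the activated stellate list, with a median of 247 CPM, 6 of 14 did. In the quiescent stellate list, with a median of 0.343 CPM, 10 of 18 did. Of the Wnt, Hedgehog and Notch ligands and inhibitors, with a median of 0.175 CPM, 21 of 26 did. Below stand the 170 bases before the start for 5 members at the ends of the scale, with matches to these 4 motifs on either strand in capitals: the gene with the most counts, a chemokine of high and one of low level, the smooth muscle actin that differed most between libraries, and the retinyl ester enzyme that had no count.
FN1: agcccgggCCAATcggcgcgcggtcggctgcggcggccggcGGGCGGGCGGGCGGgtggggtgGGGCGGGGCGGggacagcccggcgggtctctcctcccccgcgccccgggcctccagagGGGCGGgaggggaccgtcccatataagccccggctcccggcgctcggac
CXCL12: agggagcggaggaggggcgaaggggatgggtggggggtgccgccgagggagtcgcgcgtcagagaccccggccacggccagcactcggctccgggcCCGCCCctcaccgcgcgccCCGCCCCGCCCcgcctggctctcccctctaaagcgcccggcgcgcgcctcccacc
CXCL8: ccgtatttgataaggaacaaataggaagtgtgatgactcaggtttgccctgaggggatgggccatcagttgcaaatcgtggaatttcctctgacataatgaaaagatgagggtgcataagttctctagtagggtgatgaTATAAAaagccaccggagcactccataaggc
ACTG2: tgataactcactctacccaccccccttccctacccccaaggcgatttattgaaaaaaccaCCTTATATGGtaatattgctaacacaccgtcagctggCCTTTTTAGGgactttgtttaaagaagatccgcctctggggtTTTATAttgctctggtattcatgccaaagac
LRAT: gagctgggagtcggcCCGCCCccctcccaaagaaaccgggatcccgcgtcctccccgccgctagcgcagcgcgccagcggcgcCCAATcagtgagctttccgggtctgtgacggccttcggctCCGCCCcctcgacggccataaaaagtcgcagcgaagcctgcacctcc

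The FN1 stretch lies on the minus strand at chr2:215436069-215436238 and holds 6 matches to GGGCGG, some of which overlap each other, and CCAAT beginning 162 bases before the start. The CXCL12 stretch (minus strand, chr10:44385098-44385267) holds 3 GGGCGG matches on the reverse strand. The CXCL8 stretch (plus strand, chr4:73740399-73740568) has none of these, but TATAAA begins 31 bases before the start, and its CpG ratio over the 300 bases was 0.351 against 0.879 for CXCL12. The ACTG2 stretch (plus strand, chr2:73892838-73893007) holds CArG boxes beginning 110 and 73 bases before the start and TATAAA on the reverse strand at 31. The LRAT stretch (plus strand, chr4:154743830-154743999) holds 2 GGGCGG matches and 1 CCAAT, and its CpG ratio was 0.976 although the gene had 0 counts in all 3 libraries. A match is only a match of letters, and whether any factor binds there was not measured.

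Of 169 genes in 9 matrix lists, 116 reached 1 CPM in all libraries, where 59.2% of all protein-coding genes did. Together the 169 genes took 2.71, 3.25 and 3.86% of counts. Of the 91 members that averaged 10 CPM or more, 32 had a highest library at least 2-fold the lowest; the share over all genes was 12.1%.

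Fibrillar collagens form the cross-banded fibres of scar tissue, and type I collagen is built from 2 chains of COL1A1 and 1 of COL1A2. COL1A1 (hg19 chr17:48261462-48278993, minus strand) measured 904, 1443 and 714 CPM (1020 ± 378, SD, n = 3). COL1A2 (hg19 chr7:94024207-94060539, plus strand) measured 34.3, 36.7 and 243 CPM. Library 3 was the highest for COL1A2 and the lowest for COL1A1. Per kb, COL1A1 was 22.6, 33.8 and 2.52 times COL1A2, so library 3 had the lowest ratio of these partner chains. COL3A1 (hg19 chr2:189839099-189877472), the partner of type I collagen in young scars, measured 494, 485 and 142 CPM and was lowest in library 3. The type V chains, which control fibril width, were steadier. COL5A2 measured 725, 765 and 741 CPM and COL5A1 335, 481 and 305 CPM. Per kb, COL1A1 averaged 172, COL5A2 109, COL3A1 68.0, COL5A1 44.2 and COL1A2 20.6 CPM. With merged exons the order of these means was the same, at 113, 102, 55.3, 33.5 and 9.69 CPM per kb. Of 11 fibrillar collagen genes 7 reached 1 CPM in all libraries; the cartilage collagen COL2A1 stayed below it in each.

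The basement membrane collagen COL4A2 measured 633, 831 and 657 CPM and its partner COL4A1 243, 321 and 361 CPM. These genes lie head to head on chromosome 13 and share 1 heterotrimer, yet per kb COL4A2 was 2.65, 2.63 and 1.85 times COL4A1. COL7A1, the anchoring fibril collagen of skin, measured 76.1, 101 and 14.3 CPM and was lowest in library 3. Among other collagens, the fibril-associated COL12A1 measured 849, 795 and 567 CPM and the short-chain COL8A1 228, 262 and 356 CPM. Of the type VI chains, which make beaded microfilaments, COL6A3 measured 198, 189 and 85.8 CPM and COL6A1 28.3, 41.0 and 16.3 CPM. Some collagen genes of cartilage were scarce: COL9A1, a type IX chain, had no count and the type X gene COL10A1 had 10, 12 and 0 counts.

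Laminins, the network formers of basement membranes, included the gamma chain LAMC1 at 345, 363 and 458 CPM and the beta chain LAMB1 at 258, 215 and 332 CPM. How these chains compared depended on the length used. LAMC1 was 0.953, 1.20 and 0.985 times LAMB1 per kb of 1 transcript and 2.94, 3.71 and 3.04 times with merged exons. The alpha chain LAMA4, which mesenchymal and endothelial cells make, measured 27.9, 15.6 and 233 CPM. In libraries 1 and 2 it was close to LAMA1 per kb (1.13 and 0.668 times), and in library 3 it was 8.75 times LAMA1. The linker nidogen (NID1) measured 119, 126 and 103 CPM. Of 15 genes in the list 13 reached 1 CPM in all libraries.

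Glycoproteins that bind cells and growth factors had the largest share of counts of the matrix lists, at 1.16, 1.53 and 1.80% of each library, where all matrix lists together held 2.71, 3.25 and 3.86%. Beside FN1 they included SPARC, a collagen-binding protein of remodelling tissue, at 1296, 1764 and 1467 CPM. TGFBI, a TGF-beta-induced adhesion protein, measured 1034, 1033 and 1849 CPM. Thrombospondin 1 (THBS1), which can release TGF-beta from its latent complex, measured 1112, 1390 and 897 CPM. The matricellular targets of YAP, CCN1 and CCN2, measured 734, 1006 and 1101 CPM and 210, 331 and 716 CPM. Library 1 was thus lowest and library 3 highest for FN1, CCN1 and CCN2. Tenascin C (TNC) measured 448, 621 and 736 CPM, and the microfibril protein fibrillin 1 (FBN1) 558, 619 and 407 CPM. Some other matrix proteins of connective tissue were at or near 0. Elastin (ELN) had 1, 0 and 0 counts, the microfibril protein MFAP2 had none, and osteopontin (SPP1) had 23, 7 and 1. Of 33 glycoprotein genes 20 reached 1 CPM in all libraries and 8 were below it in all.

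Some small leucine-rich proteoglycans of collagen fibrils were also near 0. Biglycan (BGN) had 10, 7 and 19 counts, fibromodulin (FMOD) none, and asporin (ASPN) 0, 5 and 0. Some proteoglycans of the cell surface were expressed. The hyaluronan receptor CD44 measured 572, 501 and 793 CPM, syndecan 4 (SDC4) 360, 351 and 242 CPM and serglycin (SRGN), a secretory granule proteoglycan, 340, 306 and 524 CPM. Per kb SRGN led the list with a mean of 321 CPM, ahead of SDC4 at 122 and CD44 at 114 (62.2 with merged exons). The large matrix proteoglycan versican (VCAN) measured 128, 145 and 79 CPM. None of the 9 members that averaged 10 CPM or more differed 2-fold between libraries, where 12.1% of all genes did.

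Genes that modify and cross-link collagen were expressed almost without exception: 21 of 22 reached 1 CPM in all libraries. P4HB, a subunit of prolyl hydroxylase and a disulfide isomerase, measured 546, 529 and 400 CPM. The collagen chaperone SERPINH1 measured 211, 204 and 203 CPM (206 ± 4.18, SD, n = 3). The lysyl hydroxylase PLOD2 measured 418, 367 and 176 CPM. The cross-linking lysyl oxidases were unequal. LOX measured 144, 195 and 1112 CPM and LOXL2 310, 409 and 341 CPM. Per kb, LOX was 0.340, 0.35 and 2.39 times LOXL2, so their order turned in library 3.

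Among matrix proteases, the membrane-bound shedding enzymes ADAM9 and ADAM10 measured 446, 475 and 346 CPM and 399, 393 and 337 CPM. The gelatinase MMP2 measured 131, 97.8 and 7.34 CPM, and its membrane activator MMP14 80.7, 68.1 and 46.9 CPM. MMP9, the other gelatinase, had 55, 20 and 4 counts, and the neutrophil collagenase MMP8 had 0, 3 and 0. Lysosomal cathepsins B and L (CTSB, CTSL) measured 188, 175 and 189 CPM and 99.2, 75.9 and 111 CPM. Among protease inhibitors, TIMP2 measured 695, 658 and 647 CPM and was 5.10, 6.47 and 84.8 times MMP2 per kb. TIMP1 measured 224, 203 and 89.8 CPM. Per kb TIMP1 averaged 224 and TIMP2 182 CPM (119 and 107 with merged exons), but TIMP2 was the higher in library 3 with either length. The broad plasma inhibitor A2M had no count.

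**Figure D2:**
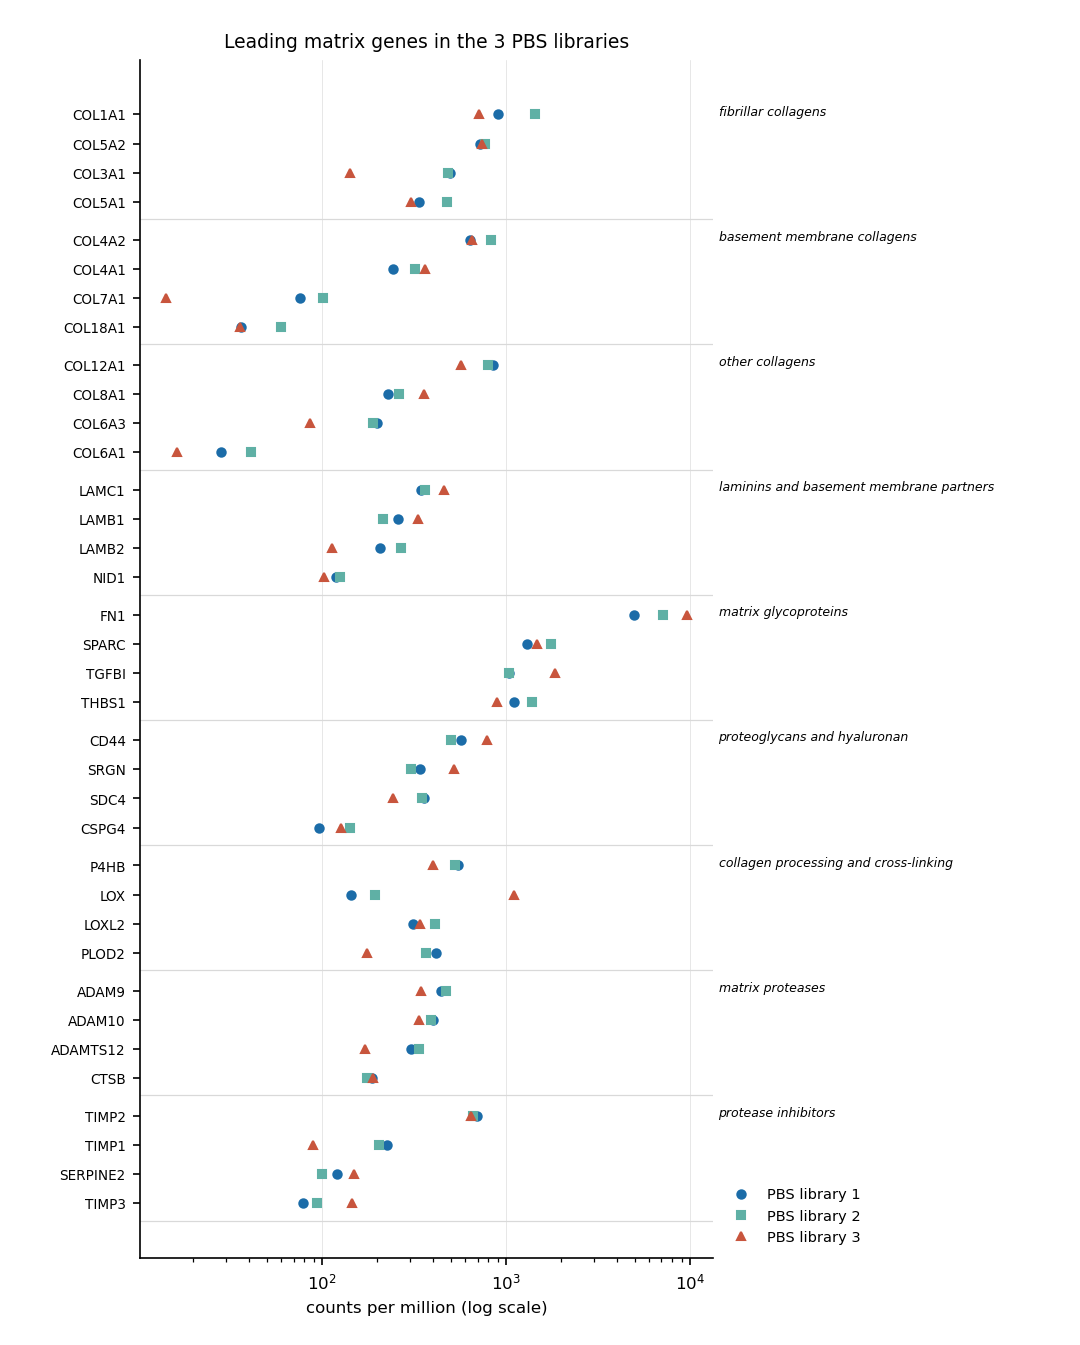
Levels in CPM (log axis) of 4 of the members with the highest means in each matrix list; circles, squares and triangles are PBS libraries 1, 2 and 3. COL5A2 and TIMP2 nearly coincide in the libraries, while LOX is highest and COL3A1 and COL7A1 lowest in library 3.

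Integrins are heterodimers of an alpha and a beta chain that bind the matrix. The shared beta chain ITGB1 measured 1302, 1259 and 1865 CPM. Its partners ITGA3, a laminin receptor chain, and ITGAV, a fibronectin and latent TGF-beta receptor chain, measured 387, 382 and 269 CPM and 314, 329 and 200 CPM. The fibronectin receptor chain ITGA5 measured 210, 218 and 278 CPM. ITGB1 was 7.04, 6.58 and 7.63 times ITGA5 per kb, and 3.14, 2.93 and 3.40 times with merged exons. The collagen receptor chains ITGA1 and ITGA2 measured 42.6, 44 and 11.9 CPM and 38.4, 24.4 and 32.4 CPM. Of 23 subunit genes 12 reached 1 CPM in all libraries; those of leukocytes did not, with ITGB2 at 10, 11 and 43 counts and ITGAM at 11, 8 and 11. ITGA8, a chain known from liver myofibroblasts, had no count.

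Among growth factor receptor kinases, AXL, the receptor for GAS6, measured 1026, 1144 and 939 CPM and led the list per kb with a mean of 220 CPM. Its ligand GAS6 measured 48.5, 62.1 and 33.4 CPM. MET, the hepatocyte growth factor receptor, measured 199, 216 and 249 CPM, while HGF itself had 6, 18 and 0 counts. EGFR measured 176, 176 and 193 CPM (182 ± 9.73, SD, n = 3), and the collagen receptor DDR2 156, 155 and 169 CPM. These receptors differed little between libraries. PDGFRB, the main PDGF receptor of activated stellate cells, measured 41.6, 43.3 and 30.7 CPM. PDGFRA, a receptor typical of other fibroblasts, measured 2.10, 1.07 and 0.252 CPM. Per kb PDGFRB was 22.2, 45.0 and 136 times PDGFRA. FGFR2, FGFR4 and ERBB4 were below 1 CPM in all libraries; 22 of 33 genes in the list reached it in all.

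The receptors for TGF-beta and BMPs were expressed, with 11 of 14 at 1 CPM in all libraries. TGFBR1 measured 236, 293 and 227 CPM, TGFBR2 150, 128 and 91.9 CPM and BMPR2 215, 229 and 354 CPM. Per kb TGFBR1 led with a mean of 38.8 CPM, ahead of the co-receptor endoglin (ENG) at 29.9, TGFBR2 at 27.2 and BMPR2 at 22.0. With merged exons TGFBR1 and ENG still led at 31.6 and 23.0 CPM per kb, but TGFBR2 at 18.0 came after BMPR2 at 21.3. BAMBI, a decoy that blocks TGF-beta signalling, measured 9.34, 10.4 and 16.4 CPM.

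Toll-like receptors sense microbial products. TLR4, the lipopolysaccharide receptor, measured 63.9, 58.2 and 67.8 CPM (63.3 ± 4.82, SD, n = 3). Its helpers CD14 and LY96 measured 7.97, 6.54 and 2.10 CPM and 8.04, 5.97 and 3.88 CPM. The shared adaptor MYD88 measured 44, 42.4 and 25.0 CPM. TLR2, the receptor for lipoteichoic acid, had 49, 28 and 1 counts, or 0.541, 0.35 and 0.0180 CPM. Only library 3 was under its floor for TLR2, and all 3 were below 1 CPM. Of 17 genes in this list 6 reached 1 CPM in all libraries, and TLR5, TLR7, TLR8, TLR9 and TLR10 were below it in all.

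Of the cytokine receptors, IL7R, a chain shared by the receptors for IL-7 and TSLP, measured 813, 767 and 892 CPM. Its co-chain for IL-7, IL2RG, had 1, 0 and 0 counts. The shared chain of the IL-6 family, IL6ST, measured 688, 594 and 721 CPM, and its partners were the oncostatin M chain OSMR at 530, 395 and 179 CPM and LIFR at 214, 190 and 172 CPM. Interferon receptor chains were present, with IFNAR1 at 243, 216 and 104 CPM, IFNGR1 at 59.5, 58.3 and 35.5 CPM and IFNGR2 at 69.5, 63.6 and 27.8 CPM. OSMR, IFNAR1 and IFNGR2 were each lowest in library 3. The TNF family was nearly complete, with 13 of 14 receptors at 1 CPM in all libraries, among them the TRAIL receptor TNFRSF10B at 107, 97.6 and 91.5 CPM and the TWEAK receptor TNFRSF12A at 52.0, 55.7 and 51.4 CPM. Per kb TNFRSF12A led the list, with a mean of 54.2 CPM (29.4 with merged exons).

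Of the receptors that HIV-1 uses for entry, CD4 and CXCR4 are given here. CD4 measured 14, 13 and 1.22 CPM, from 1265, 1039 and 68 counts. The co-receptor CXCR4 had 16, 1 and 4 counts. CD4 was thus expressed in each library but lowest in library 3, and CXCR4 was below 1 CPM in all libraries. Of 16 genes in this list, only CD4, the CXCL12 scavenger ACKR3 (4.33, 7.62 and 1.46 CPM) and CXCR6 (1.05, 1.02 and 1.44 CPM) reached 1 CPM in all; 13 were below it in all. The level of CD4 transcript says nothing of protein at the surface, which was not measured.

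Among G protein-coupled receptors known from stellate cells, the oxytocin receptor OXTR measured 145, 235 and 246 CPM. The thrombin receptor F2R measured 70.9, 61.7 and 128 CPM, the lysophosphatidic acid receptor LPAR1 20.5, 25.2 and 51.5 CPM and the sphingosine 1-phosphate receptor S1PR3 20.3, 21.7 and 42.7 CPM. Library 3 was highest for all 4. The endothelin receptors were nearly absent: EDNRA had 27, 16 and 4 counts and EDNRB 0, 0 and 1. Of 30 genes 14 reached 1 CPM in all libraries. Of the developmental receptors, NOTCH2 measured 396, 375 and 531 CPM, the Wnt co-receptor LRP6 115, 114 and 101 CPM and the Hedgehog receptor PTCH1 19.2, 19.9 and 20.1 CPM. The frizzled receptor FZD4 and the kinase-like ROR1, both Wnt receptors, measured 12.9, 14.9 and 58.7 CPM and 9.89, 11.1 and 52.3 CPM. Of the nuclear receptors, the mesenchymal orphan receptor NR2F2 measured 386, 376 and 419 CPM and the glucocorticoid receptor NR3C1 260, 251 and 391 CPM. NR2F2 led the list per kb with either length. PPARG, linked to the quiescent state, had 15, 10 and 1 counts, and the bile acid receptor NR1H4 7, 6 and 17.

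**Figure D3:**
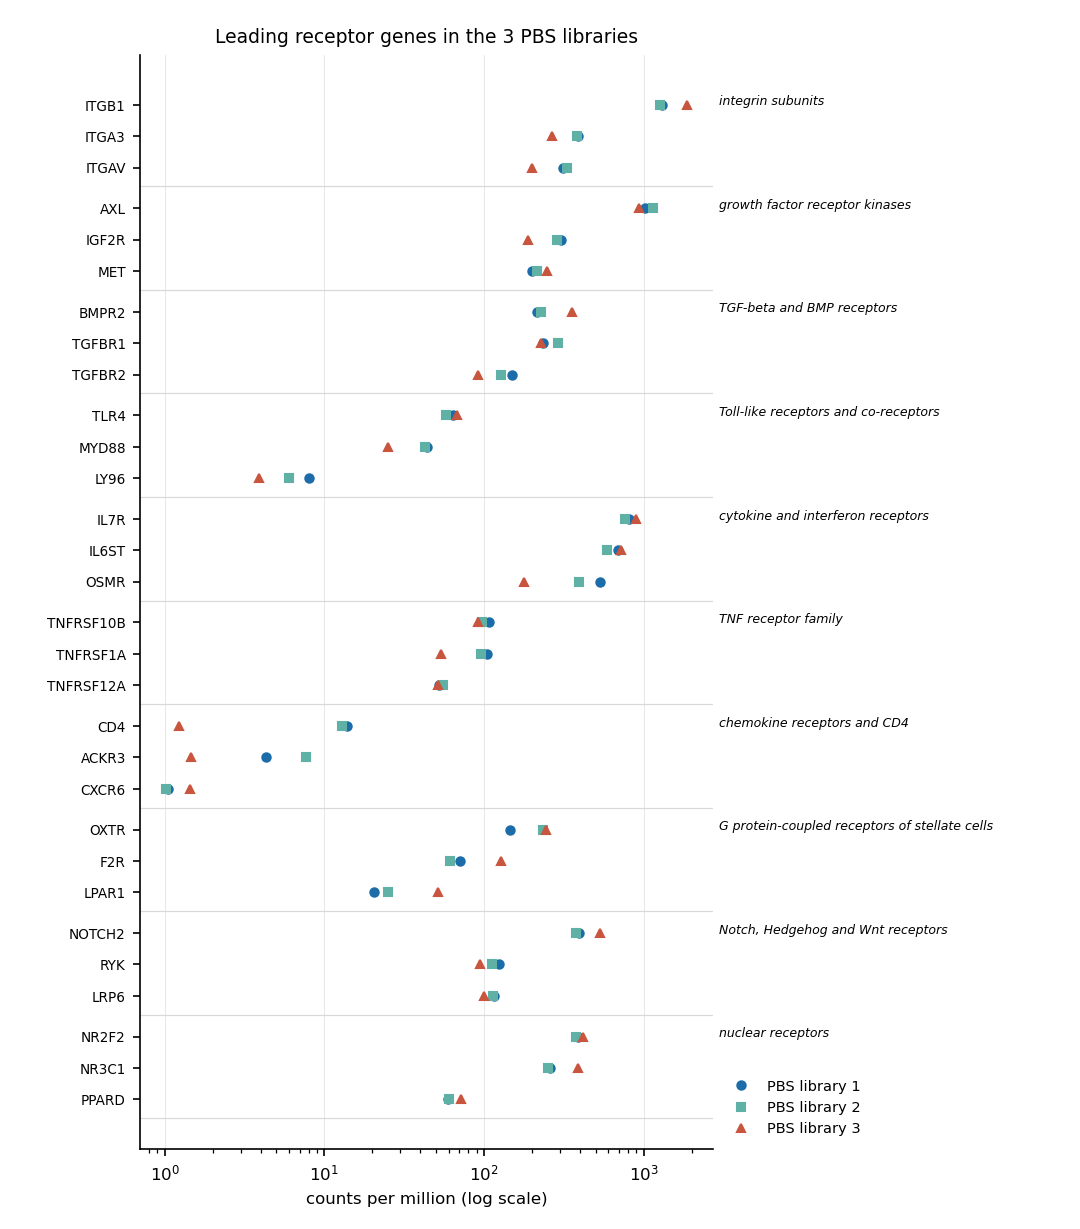
Levels in CPM (log axis) of the 3 members with the highest mean in each receptor list, with the same symbols for libraries 1, 2 and 3. By CPM, ITGB1, AXL, IL7R and IL6ST lie near the top in each library, and CD4, ACKR3 and CXCR6 near the bottom.

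Of 24 chemokines, which attract leukocytes, 4 reached 1 CPM in all libraries and 17 were below it in all. The median of the list was 0.16 CPM. CXCL12 (hg19 chr10:44865613-44881941, minus strand), the ligand of CXCR4, measured 423, 296 and 314 CPM (344 ± 68.8, SD, n = 3) and was the only chemokine over 10 CPM. CXCL8 (hg19 chr4:74606236-74609433, plus strand), a neutrophil attractant, measured 3.76, 2.61 and 3.49 CPM from 341, 209 and 194 counts. CCL2, a monocyte attractant, measured 2.97, 1.68 and 3.06 CPM, and CCL26, an eosinophil attractant, 1.77, 2.51 and 8.36 CPM. Per kb CXCL12 averaged 178 CPM, against 8.87 for CCL26, 3.46 for CCL2 and 2.00 for CXCL8. With merged exons these means were 56.0, 5.99, 1.33 and 1.27 CPM per kb, in the same order. The interferon-induced CXCL9 had no count, CXCL10 had 3, 2 and 0 and CXCL11 had 7, 5 and 10.

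Cytokine ligands were mostly silent as well: 10 of 36 reached 1 CPM in all libraries, 25 were below it in all and 7 had no count. IL11, a fibroblast cytokine of the IL-6 family, measured 53.5, 50.4 and 36.1 CPM and IL32 measured 31.2, 31.6 and 37 CPM. Macrophage growth factor CSF1 measured 11.2, 10.7 and 11.6 CPM. The inflammatory cytokines IL1B and IL6 measured 7.62, 7.30 and 2.59 CPM and 2.76, 2.35 and 1.08 CPM. IL1A had 20, 16 and 10 counts, IL10 4, 0 and 0, and the IL-1 receptor antagonist IL1RN none.

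Of 26 ligands and binders of the TGF-beta family 17 reached 1 CPM in all libraries. The BMP antagonist gremlin (GREM1) measured 1484, 1562 and 1504 CPM (1517 ± 40.7, SD, n = 3), and its highest library was 1.05 times its lowest. Of the TGF-beta isoforms, TGFB2 measured 216, 364 and 229 CPM and TGFB1 40.9, 38.7 and 27.4 CPM. Per kb TGFB2 was 2.50, 4.46 and 3.96 times TGFB1. The activin subunit INHBA measured 22.2, 38.2 and 82.7 CPM and its antagonist follistatin (FST) 14.5, 17.2 and 50.1 CPM. BMP2, BMP6 and BMP7 were each at 10 counts or fewer.

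Growth factor genes often differed between libraries. Of the 17 averaging 10 CPM or more, 9 had a highest library at least 2-fold the lowest, where 12.1% of all genes did. In library 3, 5 of them were at least 2-fold above both others, where 2.58% of all genes were. With TMM scaling 6 were, against 335 of all 9246 genes. FGF2 measured 134, 180 and 368 CPM and FGF5 16.5, 20.7 and 166 CPM. The EGFR ligand HBEGF measured 64.8, 95.7 and 138 CPM, the neurotrophin BDNF 45.5, 56.2 and 111 CPM and endothelin 1 (EDN1) 15.4, 39.1 and 86.8 CPM. PDGFC, a ligand of PDGF receptors, measured 80.2, 81.5 and 142 CPM. Library 3 was highest for each of these, and GAS6 and VEGFC were lowest there. FGF7 had 25, 23 and 1 counts.

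The IGF binding proteins carry insulin-like growth factors, and 6 of 8 reached 1 CPM in all libraries. IGFBP5 measured 2062, 2819 and 1079 CPM, and IGFBP3 measured 18.1, 40.9 and 472 CPM. Per kb IGFBP5 was 47.8, 28.9 and 0.957 times IGFBP3, and 80.6, 48.7 and 1.61 times with merged exons, so the ratio was lowest in library 3 with either length while their order there depended on it. IGFBP7 and IGFBP4 were steadier, at 271, 291 and 241 CPM and 128, 98.3 and 119 CPM. Of the secreted Wnt inhibitors, DKK1 measured 258, 306 and 468 CPM, DKK3 235, 268 and 421 CPM and SFRP1 216, 140 and 192 CPM. The ligands WNT5A and WNT5B measured 65.7, 68.5 and 48.9 CPM and 13.1, 17.9 and 26.5 CPM. Per kb DKK1, DKK3 and SFRP1 averaged 190, 122 and 40.8 CPM against 10.5 for WNT5A. With merged exons DKK3 fell below SFRP1, at 25.8 against 38.5 CPM per kb, and WNT5A stayed below both at 8.54. WNT1, WNT2 and WNT3A had at most 3 counts in any library. The Notch ligand JAG1 measured 31.7, 35.2 and 29.3 CPM.

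Of complement and acute phase genes, 11 of 25 reached 1 CPM in all libraries. The complement regulators CD59 and CD46 measured 673, 562 and 680 CPM and 211, 202 and 151 CPM. Tissue factor (F3), the starter of coagulation, measured 176, 239 and 581 CPM and the pentraxin PTX3 37, 30.7 and 199 CPM, both highest in library 3. The complement proteases C1R and C1S measured 79.9, 59.7 and 26.9 CPM and 44.5, 30.0 and 10.9 CPM, both lowest in library 3. The adipokines ADIPOQ and LEP had no count.

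**Figure D4:**
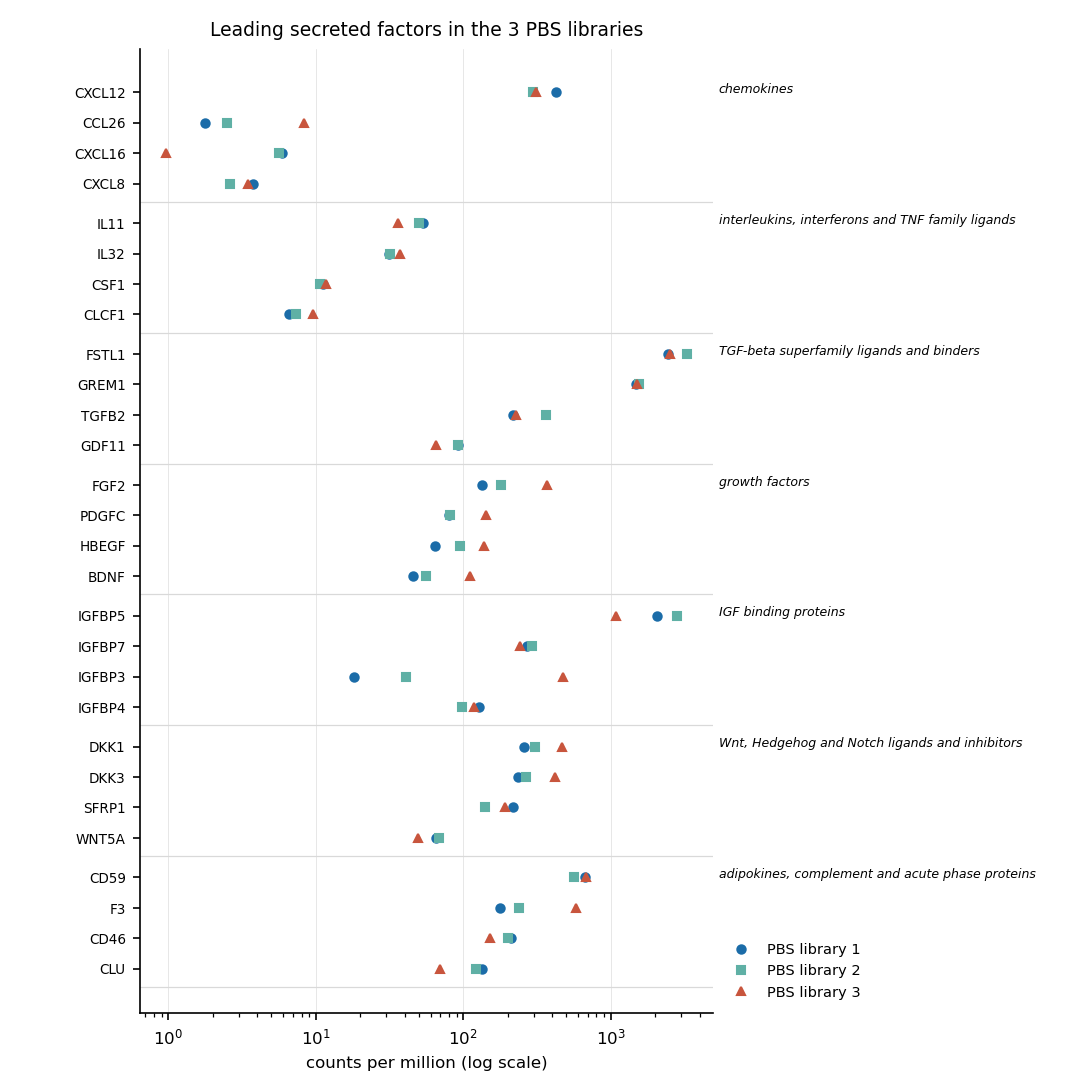
Levels in CPM (log axis) of the 4 members with the highest mean in each list of secreted factors, with the same symbols for libraries 1, 2 and 3. CXCL12 lies well above the other chemokines, GREM1 is even across libraries, and IGFBP3 is spread over more than 10-fold.

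The cell type label was set against marker lists. Of 22 genes of activated stellate cells and myofibroblasts, 19 reached 1 CPM in all libraries and 1 was below it in all, with a list median of 247 CPM. Of 24 genes of quiescent stellate cells, 9 reached it in all and 13 were below it in all, with a median of 0.343 CPM. Over all protein-coding genes 59.2% reached 1 CPM in all. By these lists the libraries carried most transcripts of the activated state, while the quiescent list was divided and several of its markers were at or near 0. LRAT had no count. The glial filament GFAP had 31, 11 and 9 counts, desmin (DES) 10, 21 and 4 and cytoglobin (CYGB) 9, 8 and 3. Quiescent list members that were expressed included the adhesion molecule ALCAM (92.7, 99.1 and 308 CPM), the lipid droplet protein PLIN2 (17.9, 17.5 and 34.4 CPM), reelin (RELN; 8.36, 5.21 and 5.86 CPM) and the stellate transcription factor LHX2 (3.82, 3.74 and 5.05 CPM).

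Of the contractile and filament genes of the activated state, ACTA2 (hg19 chr10:90694831-90751096, minus strand) measured 98.5, 220 and 166 CPM. Library 1 was the lowest, and library 2 was 2.24 times library 1. TAGLN, an actin-binding protein of smooth muscle, measured 852, 1316 and 2092 CPM, and the tropomyosin TPM1 and myosin light chain MYL9 measured 1125, 1604 and 1439 CPM and 933, 1267 and 1029 CPM. Vimentin (VIM) measured 728, 787 and 2813 CPM. Enteric smooth muscle actin ACTG2 went the other way, with 15.6, 42.1 and 1.24 CPM. ACTA2, TAGLN, TPM1, MYL9 and ACTG2 were all higher in library 2 than in library 1, the pair that otherwise differed least, and ACTA2 and ACTG2 were among the 6 genes with a 2-fold difference between them. The other 4, named after their values were seen, were EDN1, IGFBP3, CYP26B1 and the natriuretic peptide gene NPPB (10.4, 38.3 and 55.6 CPM), and all 6 were higher in library 2. Of the 19 members that averaged 10 CPM or more, 12 had a highest library at least 2-fold the lowest. The share over all genes was 12.1%. In library 3, 4 members were at least 2-fold above and 4 at least 2-fold below both others. Of all 9253 genes, 239 were above and 555 below. With TMM scaling the members numbered 5 and 4, against 335 and 359 of all 9246 genes.

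Smooth muscle and pericyte genes were largely present, with 13 of 17 at 1 CPM in all libraries. Caldesmon (CALD1) measured 1440, 2192 and 3023 CPM, the surface molecules CSPG4 and MCAM 96.5, 142 and 127 CPM and 101, 121 and 107 CPM, and the smooth muscle coactivator MYOCD 12, 21.5 and 10.3 CPM. The pericyte channel gene KCNJ8 had no count. Of the portal fibroblast and mesothelial list, 7 of 19 reached 1 CPM in all. These included GREM1 and keratins 18 and 8, epithelial filaments: KRT18 measured 317, 306 and 380 CPM and KRT8 242, 275 and 262 CPM. The fibroblast surface protein THY1 measured 157, 140 and 112 CPM, and the mesothelial factor WT1 7.33, 6.32 and 6.80 CPM. Podoplanin (PDPN) measured 0.155, 0.0875 and 18.5 CPM, so it was expressed only in library 3.

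Among mesenchymal transcription factors 30 of 43 reached 1 CPM in all libraries. The Hippo pathway effectors YAP1 and TEAD1 measured 332, 327 and 357 CPM and 378, 435 and 454 CPM, and the second coactivator WWTR1 98.5, 94.5 and 60.8 CPM. Per kb YAP1 was 3.15, 3.23 and 5.48 times WWTR1. ETS1 measured 325, 346 and 462 CPM, the stellate factor KLF6 132, 146 and 264 CPM and RUNX1 129, 136 and 93.8 CPM. TCF21, HAND1 and PRRX1, of the same list, had at most 27 counts in any library. The HOX genes record position along the body axis, and of the 18 that reached 1 CPM in all libraries 7 were from the B cluster, 8 from the C cluster, 2 from the D cluster and 1 from the A cluster. HOXB7 measured 28.0, 23.7 and 20.1 CPM, HOXB3 28.4, 24.3 and 26.1 CPM, HOXC6 16.3, 14.2 and 17.7 CPM and HOXC8 11.6, 13.6 and 10.7 CPM. Of the 10 list members that averaged 10 CPM or more, cofactors included, 2 had a 2-fold difference between libraries, where 12.1% of all genes did.

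Genes that handle retinoids and lipid droplets were partly present, with 10 of 21 at 1 CPM in all libraries. The retinol dehydrogenase RDH11 measured 156, 143 and 113 CPM, the droplet coat protein PLIN3 62.0, 64.1 and 47.9 CPM and the lipase PNPLA2 17.5, 21.8 and 9.64 CPM. The retinoic acid hydroxylase CYP26B1 measured 10.1, 20.9 and 7.23 CPM. The retinol receptor STRA6 had 20, 2 and 7 counts and the retinal dehydrogenase ALDH1A1 none. STRA6, ALDH1A1 and LRAT were thus at or near 0, while RDH11, PLIN3 and PNPLA2 were expressed.

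Most marker genes of hepatocytes, endothelial cells, macrophages and lymphocytes were below 1 CPM in all libraries (20 of 23, 12 of 16, 16 of 17 and 15 of 16), as were 9 of 15 cholangiocyte and epithelial genes. Of the hepatocyte genes 7 had no count, and albumin (ALB) had 4, 0 and 8 counts. Those that reached 1 CPM in all libraries were CPS1, the mitochondrial enzyme that opens the urea cycle, at 135, 135 and 83.1 CPM, and the asialoglycoprotein receptor ASGR1 at 1.77, 2.37 and 1.20 CPM. Of 16 endothelial genes 2 reached 1 CPM, the receptors TEK (7.62, 8.91 and 2.19 CPM) and TIE1 (4.32, 4.03 and 5.59 CPM), while PECAM1 had 9, 6 and 9 counts. Of 17 macrophage genes 1 reached it, the receptor CSF1R at 1.49, 1.02 and 1.15 CPM; CD163 had 0, 1 and 0 counts and MARCO none. No lymphocyte gene of 16 reached it in all libraries, and CD3E had 2, 0 and 0 counts. The summed levels over the macrophage and lymphocyte lists were 1.91 to 2.74 CPM and 1.60 to 3.00 CPM. The cholangiocyte and epithelial list, in contrast, summed to 598, 624 and 679 CPM, nearly all of it from KRT18 and KRT8. Of its 15 genes 6 reached 1 CPM in all libraries, SOX9 among them (22.6, 24.4 and 27.4 CPM); EPCAM had 9, 6 and 5 counts and KRT19 4, 2 and 7.

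**Figure D5:**
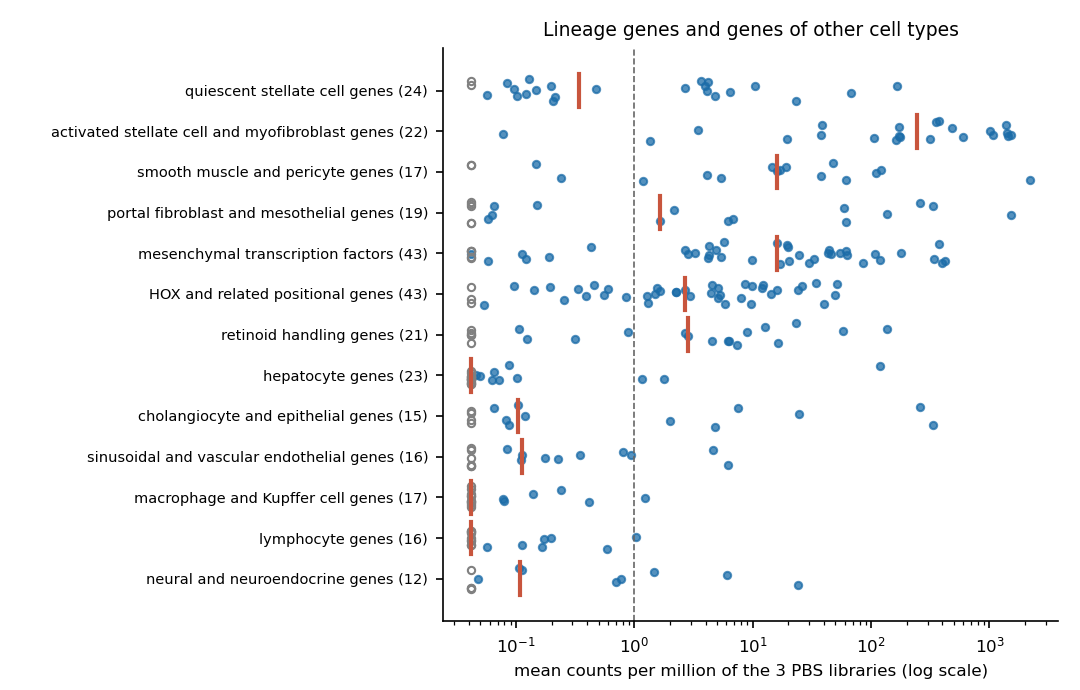
Mean level over the 3 libraries in CPM (log axis) of each member of the lineage lists and the lists of other cell types, with the number of members in brackets. Red bars mark list medians, the dashed line 1 CPM, and open circles members whose mean lies under the floor, drawn at it. The medians of the hepatocyte, macrophage and lymphocyte lists lie under the floor, so their bars are drawn at it too. The activated stellate list lies highest and the hepatocyte, macrophage and lymphocyte lists lowest.

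Genes of the cell cycle were expressed almost throughout. Of 29 proliferation genes 28 reached 1 CPM in all libraries, and only 1 of the 27 averaging 10 CPM or more differed 2-fold, against 12.1% of all genes. The mitotic topoisomerase TOP2A measured 1250, 1214 and 1197 CPM (1221 ± 27.0, SD, n = 3), the proliferation antigen MKI67 672, 632 and 755 CPM and the replication clamp PCNA 328, 326 and 317 CPM. Cyclin B1 (CCNB1) measured 527, 440 and 779 CPM, and cyclin D1 (CCND1) 316, 353 and 716 CPM. The share with a 2-fold difference was thus far below that of the matrix lists (32 of 91) and the growth factors (9 of 17), a difference that was not tested. Of the genes that restrain the cell cycle, CDKN1A, an inhibitor of cyclin-dependent kinases, measured 35.6, 34.9 and 11.7 CPM and RB1, the retinoblastoma gene, 333, 321 and 181 CPM, both lowest in library 3. The inhibitor CDKN2A, which holds back cyclin D kinases, measured 25.4, 22.6 and 31.0 CPM. The telomerase gene TERT had no count.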

How the data were processed

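Raw counts of reads per gene, as the authors deposited them for 9 RNA-seq libraries, were the starting point and the 3 PBS columns were used; 0 columns were unmapped. Per the submitters' processing notes, fastp, STAR, SAMtools and HTSeq were used on hg19; versions and strand setting are not given in the sources used here. CPM were counts divided by each library's total over named genes, 90.6, 80.0 and 55.6 M. Lengths (exons of the canonical transcript, or merged exons of all transcripts as an alternative added after the data were seen) and hg19 coordinates came from GENCODE release 44 lifted to GRCh37, matched by symbol (883 of 884 list members, 885 named in 42 lists). No test was made, since there is 1 group with 1 library per batch; log2(CPM + 0.1) was used for correlations. Alternatives were TMM (edgeR 4.0.16) and DESeq2 1.42.0 size factors, a total without mitochondrially encoded genes, other thresholds and leaving out each library. Named genes were, per list, up to the 10 highest and 6 below 1 CPM in all libraries, the 20 highest by CPM and per kb, the 15 with the highest ratio between libraries, and a set of stellate and receptor genes. A few genes that this rule names are counted in the lists but not reported here. Libraries, lists and genes were chosen with earlier results of these data known. Scripts were tested on simulated data. R was 4.3.3, Python 3.11.15 and pandas 2.3.3.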

Additional observations from a re-analysis of the deposited data

How the results depend on the processing

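The 12089 genes at 1 CPM in all libraries ranged from 12117 to 12142 with TMM, DESeq2 size factors or a total without mitochondrially encoded genes, and from 12134 to 12742 without 1 library; thresholds of 0.5 and 5 CPM gave 12938 and 9891. The share of counts in the 100 top genes averaged 16.4% (15.9 to 16.9% without 1 library) and that of the matrix lists 3.27% (2.98 to 3.55%). Differences between libraries rested on library 3: the 1118 genes with a 2-fold difference became 960 without library 2, 925 without library 1 and 6 without library 3. They numbered 2560 when genes of 1 CPM were admitted and 405 at 50 CPM or more, and 1000 with TMM. The leading gene was the same by CPM and per kb in 28 of 42 lists. With the merged exons of all transcripts as the length, an alternative added after seeing the data, the leading gene per kb was the same in 35 of the 42 lists, and the mean ratio moved by over 1.5 times for 7 of 19 pairs of named genes. Depth limits what can be said of genes with few counts, above all in library 3. No paired analysis was possible because only 1 group is described. The 3 rescalings left the means of the 256 genes named at 0.956 to 1.1 times their values.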
